A study of Mus musculus with 14 samples.

Results

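Serpins are the largest family of protease inhibitors in vertebrates, and their transcripts were followed here in the corneas of Klf5CN and WT mice at PN56 and PN11. The members were all probe sets of the array whose single gene symbol has the form of a serpin gene of clades a to i, which gave 53 probe sets of 39 genes among 45101 probe sets in all. A further 3 probe sets that carry several serpin symbols and 3 of a serpin pseudogene fall outside this rule. Total RNA was hybridized to Affymetrix whole-genome mouse arrays, 1 array for each mouse, with both corneas of a mouse pooled. The groups were 4 PN56 Klf5CN, 4 PN56 WT, 3 PN11 Klf5CN and 3 PN11 WT mice, on a mixed background. Klf5CN mice were Klf5 loxP/loxP, Le-Cre/-. Their WT littermates were Klf5 loxP/loxP without Cre, so both genotypes carried the floxed alleles and only the Klf5CN mice carried Cre. Le-Cre is active in tissue that derives from the surface ectoderm of the eye, and the stroma, the endothelium and invading blood cells keep the gene. Since no group carried Cre with an intact Klf5 gene, loss of Klf5 and presence of Cre cannot be told apart.

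A serpin presents an exposed reactive centre loop to its target protease, and cleavage of that loop traps the enzyme in an inactive complex that the inhibitor does not survive. Clade A serpins are mostly secreted and many of them circulate in plasma, whereas clade B serpins lack a classical signal peptide and act largely inside cells, where they limit damage by the proteases of leukocyte granules or by lysosomal enzymes. Some members inhibit no protease, such as maspin, pigment epithelium-derived factor and the collagen chaperone of the endoplasmic reticulum. In the gene reference, most mouse serpins lie in 3 runs of neighbouring genes, on chromosomes 1, 12 and 13, which hold 7, 12 and 11 of the 39 genes. The other 9 lie outside these runs, which the plots call clusters.

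Levels are given as the log2 of the array signal. A signal under 10 was raised to 10 (log2 3.32, called the floor). On each array the trimmed mean signal was 150, and the number of mice limits the precision. The probe set of Klf5 with the largest loss read 3.32 to 6.14 in PN56 Klf5CN arrays and 9.91 to 10.56 in PN56 WT arrays, and 3.67 to 4.19 in PN11 Klf5CN arrays and 8.91 to 9.21 in PN11 WT arrays. Another Klf5 probe set read 4.35 to 6.44 in Klf5CN and 10.14 to 10.36 in WT arrays at PN56. At PN11 it read 6.69 to 7.15 and 10.18 to 10.41. On a further Klf5 probe set the genotypes overlapped at PN56, with 8.69 to 9.59 in Klf5CN and 9.22 to 9.76 in WT arrays. At PN11 that probe set read 7.06 to 7.80 in Klf5CN and 8.07 to 8.51 in WT arrays. Replicates correlated at 0.939 to 0.985. Epithelial markers of the cornea (Krt12, Krt5, Krt14, Pax6, Aldh3a1, Tkt) were measured in all groups. Each read by its brightest probe set, 0 of 6 were called between genotypes at either age. Among all 13659 genes, 7.1% were called higher and 1.63% lower at PN56, and 3.81% and 1.49% at PN11. A count of 0 of 6 lies near these shares and does not show an unchanged epithelium. Over all 15 tested probe sets of the 6 marker genes 1 was lower at each age, of Tkt (log2 -2.02 at PN56 and -2.11 at PN11), and the PN11 differences of the 5 Pax6 probe sets were -2.48 to -0.52 with 0 called. Krt14 probe sets differed at PN56 by 0.68, 0.75 and 0.65 (limma adjusted p = 0.0265, 0.0161 and 0.131), short of 2-fold and not called. Leukocyte markers differed by cell type. Of 6 macrophage genes 5 were higher in PN56 Klf5CN and 4 in PN11 Klf5CN corneas, and of 5 tested neutrophil genes 4 and 5. Of 4 tested T and NK cell genes 3 and 2 were higher, and of 3 tested B and plasma cell genes 2 and 0. Of 5 mast cell genes 1 and 0 were higher. Over all 13659 genes, 7.1% were higher at PN56 and 3.81% at PN11. The summed signal of the neutrophil genes was 2023 to 8060 in PN56 Klf5CN and 107.8 to 997.7 in PN56 WT arrays, and 2423 to 4196 in PN11 Klf5CN and 173.4 to 322.2 in PN11 WT arrays. In whole corneas, fewer cells of a type and less RNA per cell cannot be told apart.

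Klf5CN arrays were not all alike. PN11 Klf5CN replicate 3 and PN56 Klf5CN replicate 4 had log2 ratios of 3′ to 5′ Actb control signal of 1.62 and 1.397, against 0.23 to 0.47 on the other 12 arrays. Their Gapdh ratios were 6.18 and 0.65, against -0.54 to -0.24. High ratios of this kind are a sign of shortened or incompletely copied RNA. PN56 Klf5CN replicate 3 correlated on average at 0.965 with the PN56 WT arrays and at 0.951 with its own group, and it gave the lowest of the 4 Klf5CN values for 9 of the 11 serpin probe sets that were higher in PN56 Klf5CN corneas. Its Klf5 signal of 5.15 was within the range of its group. Results that turn on these 3 arrays are given with and without them.

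Of the 53 serpin probe sets, 32 of 22 genes exceeded a signal of 20 on at least 3 arrays and were tested. A probe set was called higher or lower at an adjusted p below 0.05 (limma, Benjamini-Hochberg over 29355 probe sets) and more than 2-fold between group means of log2 signal. Klf5CN corneas at PN56 showed 11 serpin probe sets of 11 genes higher than WT and 0 lower, that is 34.4% of the 32 tested, where 5.68% of all tested probe sets were called higher and 1.44% lower. At PN11, 6 probe sets of 5 genes were higher and 1 was lower, which is 18.8% and 3.12%, against 2.79% and 1.17% of all probe sets. Each count includes probe sets that had passed the signal minimum only on Klf5CN arrays (3 probe sets, of Serpina10 and Serpina1b), so the shares describe the tested probe sets and not the family. Median log2 differences over the 32 probe sets were 0.48 at PN56 and 0.08 at PN11, against 0.02 and 0 over all tested probe sets. With both arrays of high 3′ to 5′ ratio left out, 6 probe sets were called higher at PN56 (Serpina1b, Serpina3n, Serpina3i, Serpinb6b, Serpinb9 and Serping1) and 0 lower. Subtraction of each array's median moved the median of all probe sets at PN56 by over 0.2, to -0.21. The share of calls that were higher then went to 55.5%, against 79.8% without it, and 4 serpin calls remained, of Serpina3n, Serpinb6b, Serpinb9 and Serping1.

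By chromosomal run, at PN56 4 of 6 tested probe sets of the chromosome 12 run, 3 of 8 of the chromosome 13 run and 4 of 8 outside the runs were higher in Klf5CN corneas, whereas 0 of 10 on chromosome 1 were called. At PN11 the numbers were 3 of 6, 3 of 8, 0 of 8 and 0 of 10, and the single call lower was on chromosome 1. Counts this small were not compared between runs, a share of 0 of 10 or 0 of 8 lies near the shares over all probe sets, and 4 of the 10 probe sets on chromosome 1 belong to Serpinb5. Genes of 1 run share sequence and are not independent of each other.

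**Figure D1:**
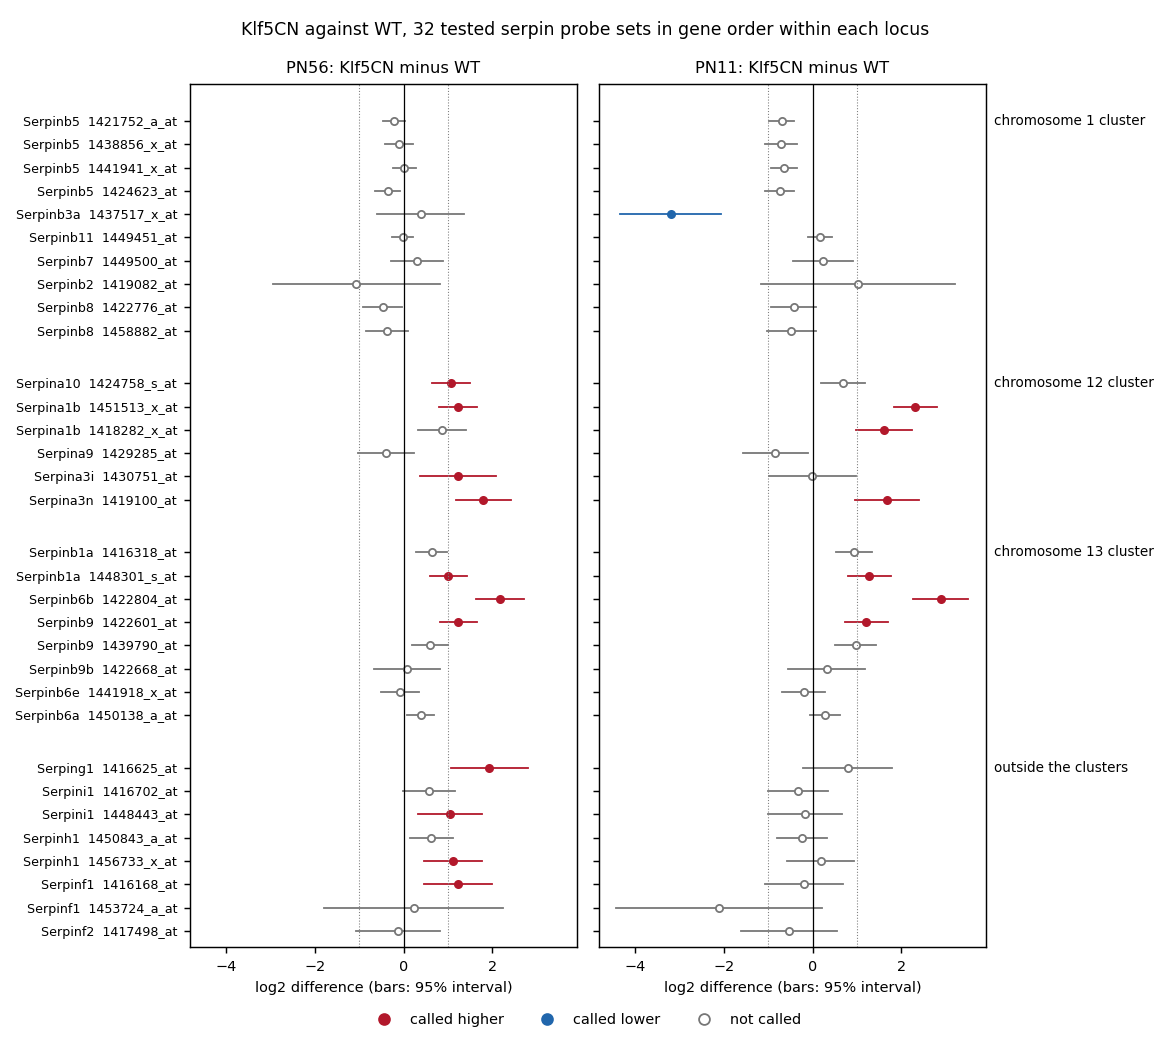
Difference in log2 signal between Klf5CN and WT corneas (x axis) for the 32 tested serpin probe sets (rows, in gene order within each chromosomal run) at PN56 (left) and PN11 (right). Points are fitted differences, bars 95% intervals, filled points called probe sets and dotted lines 2-fold. At PN56 the 11 called probe sets lie to the right of 0 and none of them is on chromosome 1, and at PN11 Serpinb3a lies far to the left at -3.20.

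Secreted inhibitors of the chromosome 12 run included the acute phase serpin Serpina3n, a mouse relative of human antichymotrypsin that is made by liver and by injured tissue. Serpina3n read 12.18, 11.90, 11.51 and 12.27 in PN56 Klf5CN corneas and 9.72, 10.44, 11.10 and 9.38 in PN56 WT corneas. It read 11.84, 11.66 and 11.47 in PN11 Klf5CN corneas and 10.13, 10.08 and 9.73 in PN11 WT corneas. The genotypes did not overlap at either age, with the closest values those of PN56 Klf5CN replicate 3 and PN56 WT replicate 3. Serpina3n was 3.48-fold higher at PN56 (log2 1.80, SE 0.29, adjusted p = 9e-04) and 3.20-fold higher at PN11 (log2 1.68, SE 0.33, adjusted p = 0.00804). The effects at the 2 ages differed by 0.12 (95% interval -0.82 to 1.06), and age changed it by 0.18 in WT corneas (-0.48 to 0.85). PN56 WT replicate 3 had the highest Serpina3n of its group. It also had the highest marker sums of its group for neutrophils (997.7), macrophages (740), T and NK cells (106.7), keratocytes (7122) and lens (2695). Its mast cell sum was the lowest of the group (698.2). For B and plasma cells its sum (140.7) was below that of replicate 4 (194.3). Its sums for corneal epithelium, vessel endothelium, conjunctiva, hepatocytes and blood were not the highest either. The part of leukocytes or other cells in the Serpina3n signal was not tested.

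Among the tested members, intracellular inhibitors of the chromosome 13 run gave the largest increase. The study lists a larger PN56 increase for Serpina3g, which is not among the members here. Serpinb6b, a clade B relative of the cathepsin G inhibitor Serpinb6a, read 8.89, 8.96, 8.06 and 9.21 in PN56 Klf5CN corneas and 6.37, 6.59, 7.10 and 6.35 in PN56 WT corneas. At PN11 it read 9.68, 9.60 and 10.01 in Klf5CN and 7.40, 6.68 and 6.55 in WT corneas. At both ages all Klf5CN arrays stood above all WT arrays. The increase was 4.52-fold at PN56 (log2 2.18, SE 0.25, adjusted p = 0.000104) and 7.41-fold at PN11 (log2 2.89, SE 0.29, adjusted p = 8.27e-05). Serpinb6a, which lies at the other end of the run, differed by 0.39 at PN56 (95% interval 0.09 to 0.68) and by 0.28 at PN11 (-0.06 to 0.62), and Serpinb6e by -0.08 (-0.50 to 0.34) and -0.20 (-0.69 to 0.29), with 0 of these 4 differences called. Whether Serpinb6b differed from these relatives in its change was not tested.

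Serpinb9, the inhibitor of granzyme B with which cytotoxic lymphocytes and antigen-presenting cells protect themselves, is also on chromosome 13. On its probe set 1422601_at it read 8.41, 8.64, 7.72 and 7.94 in PN56 Klf5CN corneas and 6.63, 7.03, 7.14 and 6.95 in PN56 WT corneas. In PN11 corneas it read 8.28, 7.98 and 8.30 for Klf5CN and 6.68, 7.03 and 7.21 for WT. Genotypes again did not overlap, and the increase was nearly the same size at both ages, 2.36-fold at PN56 (log2 1.24, SE 0.20, adjusted p = 0.000883) and 2.32-fold at PN11 (log2 1.21, SE 0.23, adjusted p = 0.00579). On the other probe set, 1439790_at, the differences were 0.60 and 0.98 (adjusted p = 0.0446 and 0.0149), in the same direction but short of 2-fold. Serpina3n, Serpinb6b and Serpinb9 were the serpins that stayed called at both ages under all 25 alternative settings tried.

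Serpinb1a inhibits neutrophil elastase, cathepsin G and proteinase 3. Its probe set 1448301_s_at read 7.96, 8.03, 8.25 and 8.33 in PN56 Klf5CN corneas and 6.68, 6.95, 7.75 and 7.14 in PN56 WT corneas, and 7.53, 7.58 and 7.97 in PN11 Klf5CN and 6.53, 6.43 and 6.28 in PN11 WT corneas. The groups did not overlap at either age. At PN56 the log2 difference was 1.01 (SE 0.20, adjusted p = 0.00318), just past 2-fold. It fell short of 2-fold without the 2 arrays of high 3′ to 5′ ratio (0.95), and also without any one of PN56 Klf5CN replicates 3 and 4 and PN56 WT replicates 1 and 2, the lowest being 0.86. At PN11 it was 1.28 (SE 0.23, adjusted p = 0.00432). The other probe set of Serpinb1a moved the same way, by 0.63 at PN56 and 0.93 at PN11 (adjusted p = 0.0174 and 0.00955), without reaching 2-fold. The probe set of Serpinb9b, a neighbour of Serpinb9 in the same run, had 0 Present calls on the 14 arrays and was not called in any comparison.

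The region around the start of transcription is shown for the 3 serpins that stayed called at both ages and for Serpinb3a, the serpin that was lower at PN11, because Klf5 is a DNA-binding factor of the Kruppel-like family that recognizes CACCC and GC-rich boxes. The stretches run from 250 bases before to 50 bases after the start in the RefSeq annotation of GRCm38.p6 and are written 5′ to 3′ on the strand of the gene: Serpinb6b chr13:32965011-32965310 (plus strand), Serpinb9 chr13:33004291-33004590 (plus), Serpina3n chr12:104406458-104406757 (plus) and Serpinb3a chr1:107052254-107052553 (minus). Capitals mark CACCC, read on both strands (GGGTG where it lies on the other strand). GC-rich boxes were not searched and are not marked. TTCNNNGAA, the core of STAT sites, which reads the same on both strands, was searched as well and occurs in none of the 4.
Serpinb6b: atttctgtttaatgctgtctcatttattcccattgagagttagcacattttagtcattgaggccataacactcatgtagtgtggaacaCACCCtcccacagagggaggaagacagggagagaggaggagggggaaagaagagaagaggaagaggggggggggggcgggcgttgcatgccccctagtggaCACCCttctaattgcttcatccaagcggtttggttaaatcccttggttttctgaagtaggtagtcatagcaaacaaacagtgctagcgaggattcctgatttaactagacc
Serpinb9: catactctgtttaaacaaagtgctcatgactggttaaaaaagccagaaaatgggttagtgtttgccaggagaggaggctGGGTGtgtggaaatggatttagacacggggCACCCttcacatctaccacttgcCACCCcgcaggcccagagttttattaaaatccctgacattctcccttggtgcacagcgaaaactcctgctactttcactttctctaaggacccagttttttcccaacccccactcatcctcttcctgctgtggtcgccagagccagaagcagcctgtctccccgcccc
Serpina3n: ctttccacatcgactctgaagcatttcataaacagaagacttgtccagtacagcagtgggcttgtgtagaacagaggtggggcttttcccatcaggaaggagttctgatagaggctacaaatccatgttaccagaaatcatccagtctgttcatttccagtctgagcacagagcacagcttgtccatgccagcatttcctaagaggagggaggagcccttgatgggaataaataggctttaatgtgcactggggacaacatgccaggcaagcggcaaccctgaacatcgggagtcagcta
Serpinb3a: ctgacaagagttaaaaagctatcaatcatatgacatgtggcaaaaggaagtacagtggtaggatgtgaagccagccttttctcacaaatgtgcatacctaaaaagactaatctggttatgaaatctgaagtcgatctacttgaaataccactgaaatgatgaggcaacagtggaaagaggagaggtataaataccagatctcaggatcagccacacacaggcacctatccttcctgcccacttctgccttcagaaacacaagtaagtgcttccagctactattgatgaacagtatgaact

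Serpinb6b held 2 and Serpinb9 held 3 CACCC matches, while Serpina3n and Serpinb3a held 0 matches of either motif in this window. RefSeq promoters were matched for 34 of the 39 genes and for 18 of the 22 tested genes, which gave 20 stretches, of which 14 held CACCC and 4 held TTCNNNGAA. Overlapping stretches of Serpinb2 share a single TTCNNNGAA site, which was counted in each. Of all 32851 stretches of this length, 57.5% held CACCC and 8.3% held TTCNNNGAA. The matches describe letters only.

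Transcripts of 3 further chromosome 12 serpins were low everywhere. Serpina1b, one of the mouse alpha-1 antitrypsins that inhibit neutrophil elastase, was at the floor on all 7 WT arrays by both of its probe sets. Probe set 1451513_x_at read 4.83, 4.41, 4.11 and 4.85 in PN56 Klf5CN and 5.57, 5.80 and 5.53 in PN11 Klf5CN corneas. It was thus at least 2.34-fold higher in Klf5CN than in WT corneas at PN56 (adjusted p = 0.000921) and at least 4.97-fold higher at PN11 (adjusted p = 6.92e-05). Probe set 1418282_x_at read 4.49, 4.55, 3.32 and 4.38 in PN56 Klf5CN and 5.17, 5.03 and 4.61 in PN11 Klf5CN corneas. Its differences were 0.86 at PN56 (adjusted p = 0.0333, short of 2-fold and not called) and 1.62 at PN11 (adjusted p = 0.00511, called). Both probe sets passed the signal minimum only on Klf5CN arrays, so they could be tested only because they were high there, and these p-values are given as a description. GCOS called 1451513_x_at Present on 2 of 4 PN56 Klf5CN and 3 of 3 PN11 Klf5CN arrays. It called 1418282_x_at Present on 3 of 4 and 3 of 3 of these arrays, and both on 0 WT arrays. Suffix x_at marks probes that also match other sequences, and the mouse alpha-1 antitrypsin genes are near-identical copies, so this signal cannot be given to 1 of them. The probe set of Serpina1c stayed at or below 3.98 in all groups and that of Serpina1f was at the floor on all arrays, and neither was tested. Of 5 hepatocyte markers Alb, Apoa1, Apoc3 and Fgb fell below the signal minimum, and Ttr differed by 1.70 and 1.35 (adjusted p = 0.14 and 0.41).

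Serpina10, the protein Z-dependent inhibitor of coagulation factor Xa, read 4.56, 4.62, 3.91 and 4.498 in PN56 Klf5CN corneas and was at the floor on all 4 PN56 WT arrays, which is at least 2.11-fold (adjusted p = 0.00246, a description for the same reason as in Serpina1b). With 1 Present call on those 4 Klf5CN arrays, and 2 on all 14, it lay near the limit of detection. Serpina3i read 5.85, 5.75, 5.53 and 4.19 in PN56 Klf5CN and 3.38, 4.27, 4.97 and 3.79 in PN56 WT corneas. These groups overlapped through PN56 Klf5CN replicate 4, and its increase (log2 1.23, SE 0.40, adjusted p = 0.0494) was lost under 17 of 24 alternative settings, among them 11 of the 14 in which 1 array was left out. Serpina9, in human a serpin of germinal centre B cells, was Present on all arrays at 4.28 to 5.93 and was not called in any comparison.

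**Figure D2:**
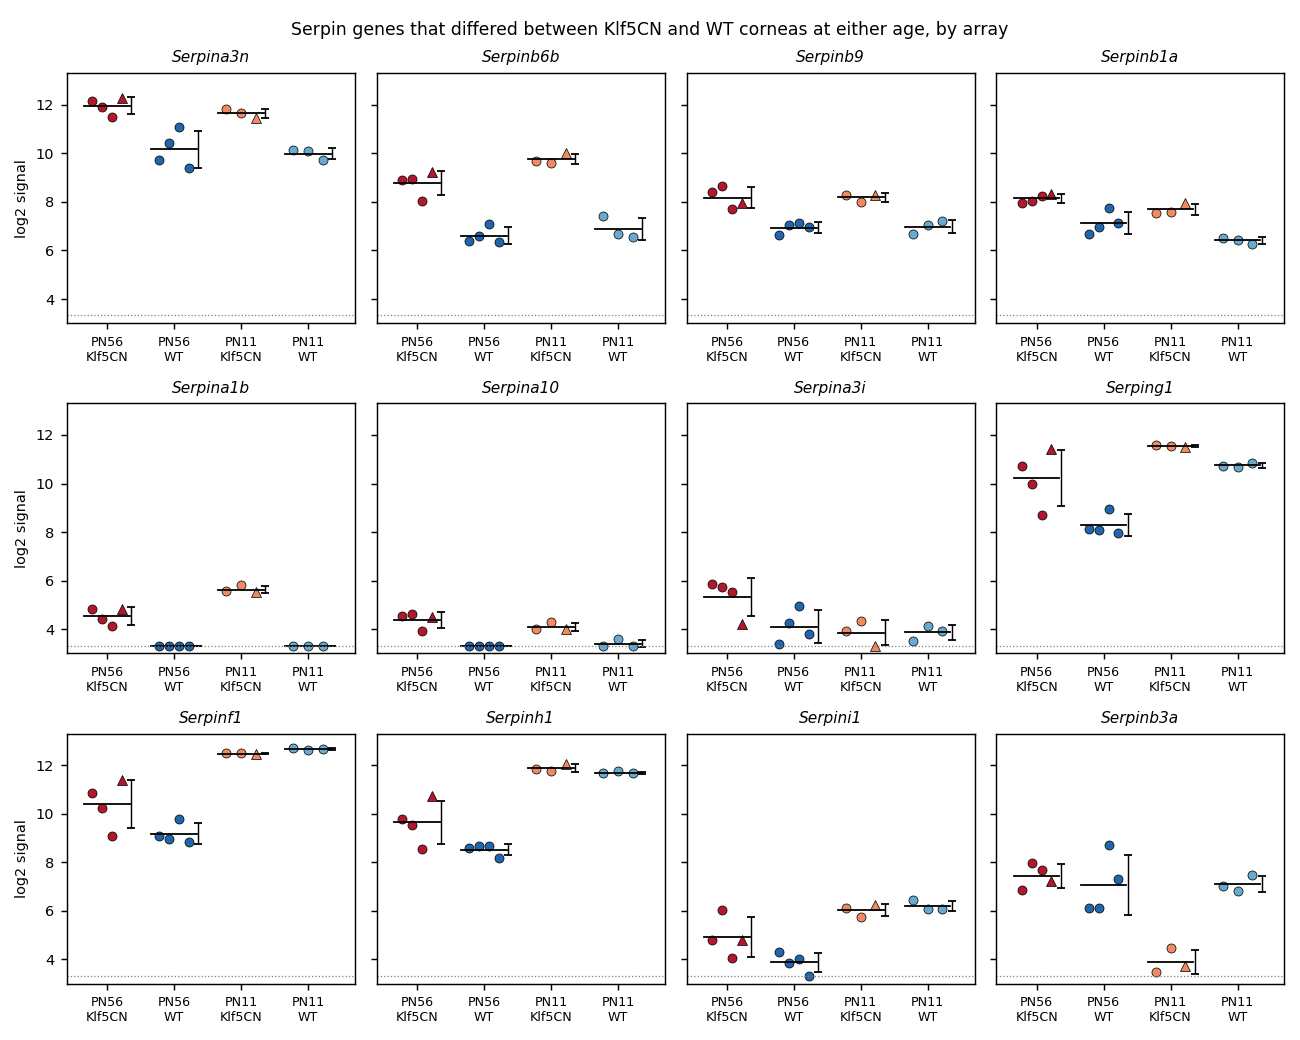
Log2 signal (y axis) on each array for the 12 serpin genes called in either genotype comparison, each read by its called probe set with the highest mean. Points are mice, triangles the 2 arrays with high 3′ to 5′ ratios, lines and bars the mean and SD of a group (n = 4 at PN56 and 3 at PN11), and the dotted line the floor of 3.32. Serpina3n, Serpinb6b, Serpinb9 and Serpinb1a separate the genotypes at both ages, and Serpinb3a separates them at PN11 but not at PN56.

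Outside the runs, 4 serpins of stroma, plasma and nerve were called lower in PN56 WT than in PN11 WT corneas on every tested probe set. Each also had a probe set called higher in PN56 Klf5CN than in PN56 WT corneas. For Serpinf1, Serpinh1 and Serpini1 the other tested probe set was not called, and the call was lost under several settings. Serping1, the inhibitor of the C1 proteases of complement and of plasma kallikrein, read 10.71, 9.99, 8.72 and 11.44 in PN56 Klf5CN corneas and 8.13, 8.10, 8.94 and 7.96 in PN56 WT corneas. In PN11 corneas it read 11.59, 11.54 and 11.49 for Klf5CN and 10.73, 10.67 and 10.85 for WT. Klf5CN replicate 3 lay below the highest WT array at PN56, and the genotypes did not overlap at PN11. Serping1 was 3.82-fold higher in Klf5CN corneas at PN56 (log2 1.93, SE 0.40, adjusted p = 0.00507), 2.43 without PN56 Klf5CN replicate 3 and 1.52 without the 2 arrays of high 3′ to 5′ ratio, both on the log2 scale and both called. At PN11 the difference was 0.79 (SE 0.47, adjusted p = 0.374). This SE comes from a spread shared by all groups and does not measure that of the PN11 arrays. Serping1 SDs were 1.16 in PN56 Klf5CN, 0.45 in PN56 WT, 0.05 in PN11 Klf5CN and 0.09 in PN11 WT corneas. With age Serping1 fell in WT corneas (log2 -2.47, SE 0.44, adjusted p = 0.000379) and in Klf5CN corneas (log2 -1.33, SE 0.44, adjusted p = 0.0254).

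Serpinf1, pigment epithelium-derived factor, is an inhibitor of vessel growth that has no protease target. Probe set 1416168_at read 10.85, 10.24, 9.08 and 11.41 in PN56 Klf5CN corneas and 9.08, 8.97, 9.80 and 8.82 in PN56 WT corneas. At PN11 it lay between 12.45 and 12.50 in Klf5CN and between 12.64 and 12.70 in WT corneas. Serpinf1 was 11.3-fold lower in PN56 WT than in PN11 WT corneas (log2 -3.50, SE 0.38, adjusted p = 5.91e-06). Against PN56 WT it was higher in PN56 Klf5CN corneas (log2 1.23, SE 0.36, adjusted p = 0.0302), but the groups overlapped. The call was lost without any one of PN56 Klf5CN replicates 1, 2 and 4 and PN56 WT replicates 1, 2 and 4, and the difference ran between 0.89 and 1.66 with single arrays left out. Without both arrays of high 3′ to 5′ ratio it was 0.89 (adjusted p = 0.0756).

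The other Serpinf1 probe set, 1453724_a_at, was lowest on the 2 arrays of high 3′ to 5′ ratio within their groups. It read 9.33, 8.84, 7.31 and 6.81 in PN56 Klf5CN and 7.89, 7.63, 8.45 and 7.43 in PN56 WT corneas, and 11.46, 11.73 and 6.002 in PN11 Klf5CN and 11.75, 11.77 and 11.98 in PN11 WT corneas. On the 2 arrays of high 3′ to 5′ ratio the probe sets were 4.60 and 6.44 apart, against 0.67 to 1.77 on the other 12. Its genotype difference of -2.10 at PN11 (SE 1.09, adjusted p = 0.298) became -0.24 without these arrays. The part of RNA quality in it was not tested.

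**Figure D3:**
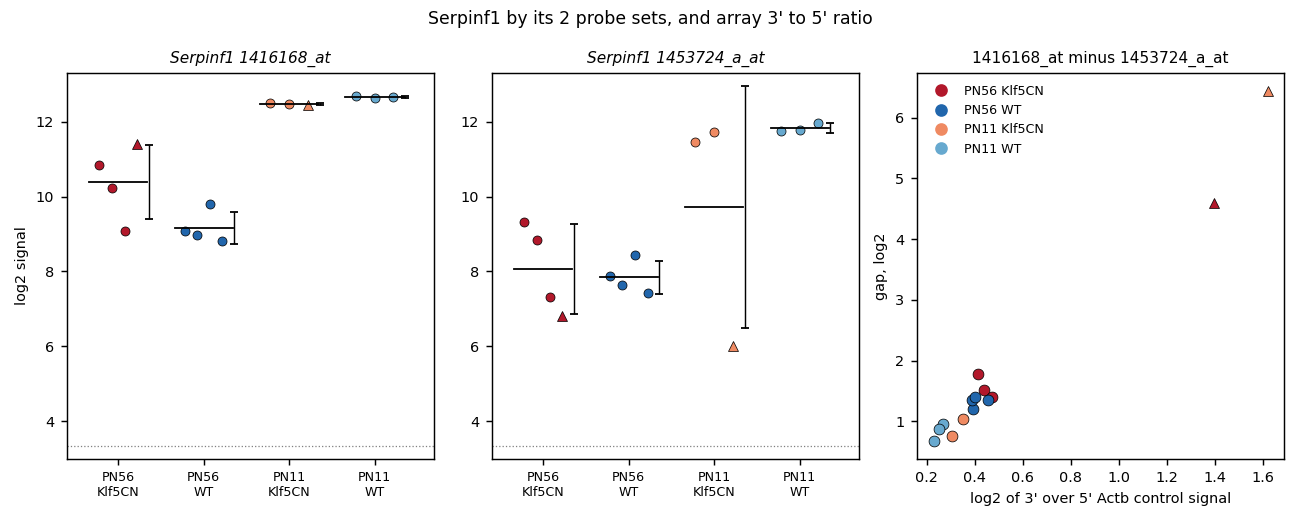
Log2 signal of the 2 Serpinf1 probe sets on each array (left and centre), and the gap between them against the log2 ratio of 3′ to 5′ Actb control signal (right). Points are mice, triangles PN56 Klf5CN replicate 4 and PN11 Klf5CN replicate 3, and lines and bars the mean and SD of a group (n = 4 at PN56 and 3 at PN11). The triangles stand alone at ratios of 1.397 and 1.62 and gaps of 4.60 and 6.44.

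Serpinh1, the collagen chaperone of the endoplasmic reticulum, was among the serpins that fell most with age. Probe set 1450843_a_at read 9.91, 9.66, 8.73 and 9.96 in PN56 Klf5CN, 8.95, 9.09, 9.11 and 8.61 in PN56 WT, 12.11, 11.91 and 11.46 in PN11 Klf5CN and 12.10, 12.02 and 12.06 in PN11 WT corneas. In WT corneas it was 8.71-fold lower at PN56 (log2 -3.12, SE 0.25, adjusted p = 2.91e-07), and in Klf5CN corneas 4.79-fold lower (log2 -2.26, SE 0.25, adjusted p = 8.17e-06). Its PN56 genotype difference was 0.63 (adjusted p = 0.0786). The other probe set, 1456733_x_at, read 9.77, 9.52, 8.55 and 10.71 in PN56 Klf5CN and 8.57, 8.68, 8.66 and 8.197 in PN56 WT corneas, a difference of 1.11 (SE 0.31, adjusted p = 0.0233) that was 0.75 (adjusted p = 0.034) and not called without the 2 arrays. The call was also lost without PN56 Klf5CN replicate 1 or PN56 WT replicate 1 or 4. Serpini1, neuroserpin, an inhibitor of tissue plasminogen activator in the nervous system, fell with age on both tested probe sets, by 3.50 and 2.32 on the log2 scale in WT and by 2.60 and 1.12 in Klf5CN corneas. Its PN56 genotype difference was 1.05 on 1448443_at (SE 0.34, adjusted p = 0.0495), lost under 22 of 25 settings, 12 of them with 1 array left out, and 0.57 on 1416702_at (adjusted p = 0.183). Serpinf2, the inhibitor of plasmin in plasma, had 0 Present calls and was not called in any comparison.

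Several of these probe sets ranked the PN56 Klf5CN mice in the same order as the keratocyte markers (Kera, Lum, Dcn, Col1a1, Ptgds, Thy1). The summed keratocyte signal of PN56 Klf5CN replicates 1 to 4 was 13490, 8993, 4190 and 20490, and Serping1, Serpinf1 by 1416168_at and both probe sets of Serpinh1 had the same ranking over these 4 mice. Serpinf1 by 1453724_a_at and both tested probe sets of Serpini1 had other rankings. Replicate 4, the highest, is an array of high 3′ to 5′ ratio, and its summed signal of corneal epithelium markers was also the highest of the group (70100, against 33640 to 43260). PN56 WT arrays had keratocyte sums of 4506 to 7122, PN11 Klf5CN arrays 26900 to 30370 and PN11 WT arrays 29410 to 32760. Of the 6 keratocyte markers, Col1a1 and Thy1 were higher in PN56 Klf5CN than in WT corneas, and 5 were lower in PN56 WT than in PN11 WT corneas. The order of the 4 PN56 Klf5CN mice was not particular to keratocyte markers or to these serpins. Summed neutrophil signal of replicates 1 to 4 (5110, 4064, 2023 and 8060) had the same ranking, and so had Serpina3n (12.18, 11.90, 11.51 and 12.27). Summed macrophage signal (5352, 3616, 1260 and 4774) had another ranking, as had Serpinb6b and Serpinb9. The part of stromal or leukocyte RNA in the serpin differences was not tested.

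Clade B serpins of the chromosome 1 run are known largely from epithelia. Serpinb5, maspin, a non-inhibitory serpin of stratified and glandular epithelia, was measured by 4 probe sets. On 1421752_a_at it read 11.63, 11.52, 11.80 and 11.48 in PN56 Klf5CN, 11.82, 11.81, 11.93 and 11.77 in PN56 WT, 9.92, 10.26 and 10.39 in PN11 Klf5CN and 10.99, 10.76 and 10.90 in PN11 WT corneas. PN11 Klf5CN arrays lay below all PN11 WT arrays, by 0.69 on average (95% interval 0.41 to 0.97, adjusted p = 0.00651), and the 4 probe sets gave differences of -0.74 to -0.64. None reached 2-fold, so none was called. Without the 2-fold minimum, 8 serpin probe sets were higher and 5 lower in PN11 Klf5CN corneas, the 5 being Serpinb3a and these 4, where 3.77% and 2.5% of all tested probe sets were higher and lower by that rule. At PN56 the 4 differences were -0.35 to 0.02. Serpinb5 was higher at PN56 than at PN11 by 1.30 to 1.42 in Klf5CN corneas, with all 4 called, and by 0.74 to 0.95 in WT corneas, with none called. The difference between the 2 age effects was 0.47 on 1421752_a_at (SE 0.18, adjusted p = 0.336).

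Serpinb11, a clade B serpin of the same run, rose with age and was called in neither genotype comparison. It read 11.73, 11.63, 11.77 and 11.87 in PN56 Klf5CN, 11.52, 11.67, 12.01 and 11.88 in PN56 WT, 10.24, 10.23 and 10.28 in PN11 Klf5CN and 10.22, 10.03 and 10.004 in PN11 WT corneas. The genotype differences were -0.02 at PN56 (95% interval -0.26 to 0.22) and 0.17 at PN11 (-0.11 to 0.44). With age it rose 3.22-fold in WT corneas (log2 1.69, SE 0.12, adjusted p = 1.29e-07) and 2.83-fold in Klf5CN corneas (log2 1.50, SE 0.12, adjusted p = 5.02e-07). Serpinb8, whose human counterpart inhibits furin, rose 3.45-fold with age in WT corneas on probe set 1422776_at (log2 1.78, SE 0.23, adjusted p = 2.14e-05), with 9.66 to 9.76 in PN56 WT and 7.85 to 8.03 in PN11 WT arrays. On its other probe set, 1458882_at, that age difference was 0.44 (adjusted p = 0.162).

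Serpinb3a, a relative of the human squamous cell carcinoma antigens that inhibit lysosomal cysteine cathepsins, was the serpin called lower in Klf5CN corneas. It read 6.87, 7.96, 7.69 and 7.24 in PN56 Klf5CN and 6.14, 6.11, 8.69 and 7.29 in PN56 WT corneas, and 3.50, 4.47 and 3.73 in PN11 Klf5CN and 7.02, 6.83 and 7.46 in PN11 WT corneas. At PN11 the genotypes were separated by more than 2 units, and at PN56 the WT arrays spanned the Klf5CN arrays. Serpinb3a was 9.21-fold lower in PN11 Klf5CN corneas (log2 -3.20, SE 0.53, adjusted p = 0.00308) and differed by 0.38 at PN56 (95% interval -0.60 to 1.37). Between the 2 ages the genotype effects differed by 3.59 (SE 0.71, adjusted p = 0.0426), the single serpin called in that comparison, where 0.211% of all tested probe sets were called in this direction. Left out in turn, 12 of the 14 arrays ended that call, while the difference stayed between 3.27 and 4.13. The probe set is of the x_at kind and lies among close copies of the gene on chromosome 1. Krt4, a keratin of conjunctiva and other mucosal epithelia, was also lower in PN11 Klf5CN than in PN11 WT arrays. Krt4 read 9.40, 8.81, 7.66 and 7.91 in PN56 Klf5CN and 4.45, 4.21, 8.42 and 9.70 in PN56 WT corneas. At PN11 it read 4.61, 4.20 and 3.55 in Klf5CN and 6.89, 7.60 and 7.51 in WT corneas. In both genes PN56 WT replicates 1 and 2 were lower than replicates 3 and 4. In PN56 Klf5CN arrays the genes parted, as replicate 1 was the lowest for Serpinb3a and the highest for Krt4. Among 4 conjunctival markers, Krt4 had the PN11 difference furthest from 0 (log2 -3.21, SE 1.09, adjusted p = 0.103), with no overlap between the genotypes but short of the call. Krt13 was called lower in PN11 Klf5CN corneas (log2 -1.35, adjusted p = 0.0407), and Krt19 and Muc5ac differed by -0.01 and 0. At PN56 the 4 conjunctival markers differed by 0.93 to 2.64, with 1 called higher. The part of conjunctival epithelium in the Serpinb3a result was not tested.

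Serpinb2, plasminogen activator inhibitor type 2, was the most variable member of the run. It read 7.17, 5.44, 5.67 and 4.94 in PN56 Klf5CN and 4.39, 5.63, 9.90 and 7.54 in PN56 WT corneas, and 3.32, 5.49 and 4.22 in PN11 Klf5CN corneas, and was at the floor on all 3 PN11 WT arrays. It was at least 11.7-fold higher in PN56 WT than in PN11 WT corneas (log2 3.54, adjusted p = 0.00791). The log2 difference was 2.53 without PN56 WT replicate 3 and 4.37 without PN56 WT replicate 1, both called, and 2.02 (adjusted p = 0.137) with a floor of 32. Here PN56 WT replicates 3 and 4, the arrays high in Serpinb3a and Krt4, were again the highest. The genotypes overlapped at PN56, with a difference of -1.06 (95% interval -2.95 to 0.83). Serpinb7, in human a serpin of the epidermis, read 3.69 to 5.65 and was not called.

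Over the 32 tested probe sets, 4 were higher and 8 lower in PN56 WT than in PN11 WT corneas, where 10.2% and 12.2% of all probe sets were called. All 8 of the tested probe sets outside the runs had a negative difference and 7 were called lower. On chromosome 1, 3 of 10 were called higher. Serpinb1a (log2 1.06, SE 0.18, adjusted p = 0.000237, by 1416318_at, and 0.89 and not called without PN56 WT replicate 3) was the fourth called higher and Serpinb6a the eighth called lower (log2 -1.04, SE 0.15, adjusted p = 6.54e-05). In Klf5CN corneas 8 probe sets were higher and 7 lower at PN56 (10.4% and 10.5% of all), with 7 of the 8 on chromosome 1. These comparisons share arrays with the genotype comparisons.

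**Figure D4:**
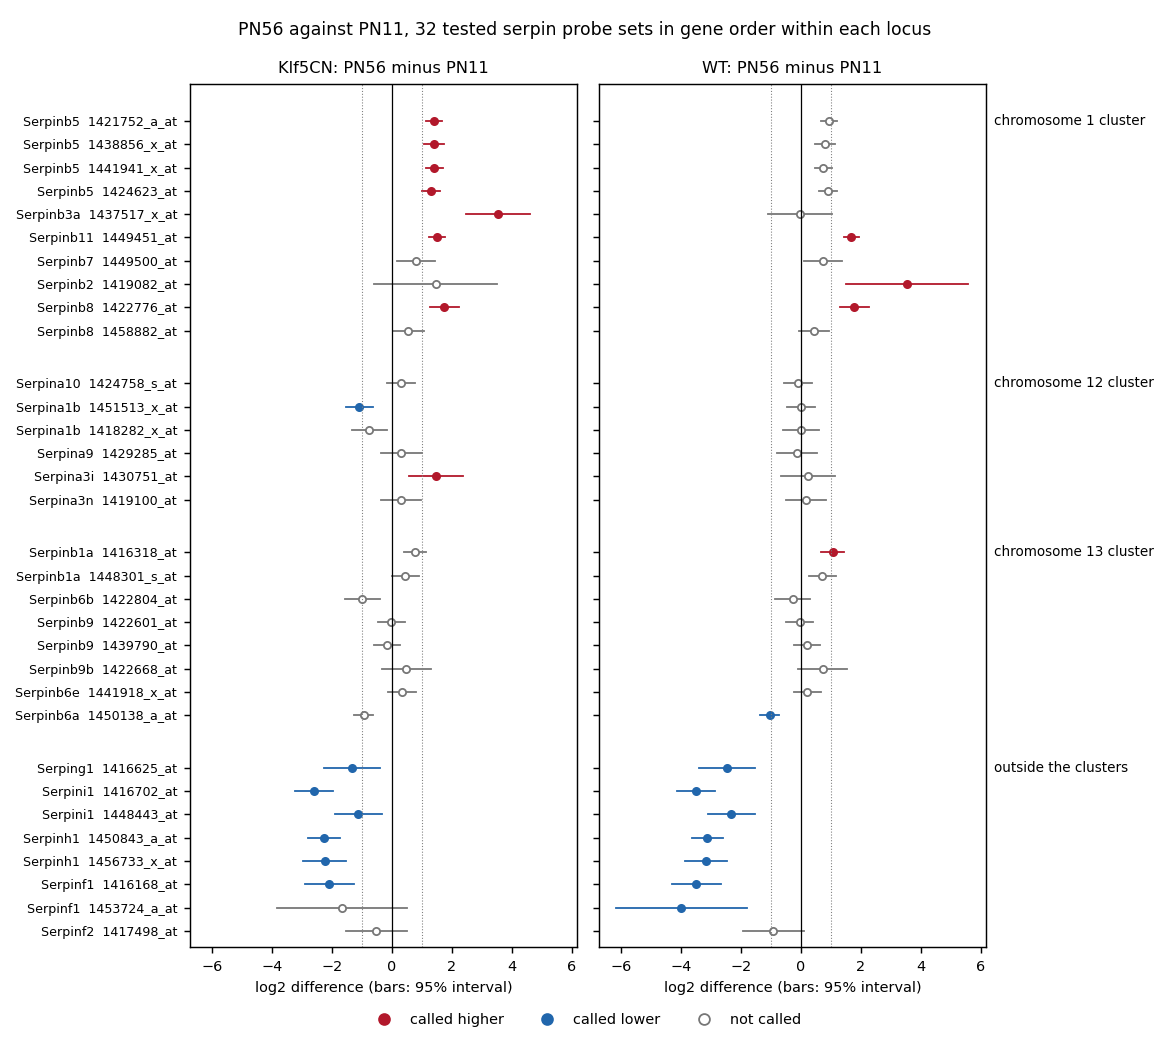
Difference in log2 signal between PN56 and PN11 corneas (x axis) for the 32 tested serpin probe sets (rows, in gene order within each chromosomal run) in Klf5CN (left) and WT mice (right). Points are fitted differences, bars 95% intervals, filled points called probe sets and dotted lines 2-fold. Serpinf1, Serpinh1, Serpini1 and Serping1 lie to the left of 0 in both genotypes, and Serpinb11 and Serpinb8 by 1422776_at lie to the right.

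The remaining 21 probe sets, of which 17 genes had no other probe set tested, did not exceed a signal of 20 on 3 arrays. Among these, 12 probe sets were at the floor on all 14 arrays and 14 were Present on none. The genes are Serpinb12 of the chromosome 1 run, Serpina1c, Serpina1f, Serpina3a, Serpina11, the hormone carriers Serpina6 (corticosteroid-binding globulin) and Serpina7 (thyroxine-binding globulin), Serpina5 (protein C inhibitor), Serpina12 (vaspin), Serpinb1b, Serpinb6c, Serpinb9c, Serpinb9d, Serpinb9g, Serpini2 and the thrombin inhibitors Serpinc1 (antithrombin) and Serpind1 (heparin cofactor). Serpinc1 was Present on 4 PN56 Klf5CN, 3 PN56 WT, 1 PN11 Klf5CN and 2 PN11 WT arrays at signals no higher than 4.37. A level under the minimum does not show that a transcript was absent.

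Proteases that serpins inhibit were read gene by gene, each by its brightest tested probe set, where 7.1% and 1.63% of 13659 genes were higher and lower in Klf5CN corneas at PN56 and 3.81% and 1.49% at PN11, and 4.37% and 15.6% were higher and lower in PN56 WT than in PN11 WT corneas. Of 5 tested granzyme and perforin genes, 3 were higher at PN56 and 1 at PN11. Gzmb, the granzyme that Serpinb9 inhibits, rose by 2.63 (adjusted p = 0.000261) and 1.97 (adjusted p = 0.00996), and Gzma and Gzme rose by 1.60 and 1.10 at PN56. Of 8 listed neutrophil and mast cell proteases only Cma1, Mcpt4, Tpsb2 and Tpsab1, all of mast cells, passed the minimum, of which Tpsab1 (2.10) and Cma1 (1.20) were higher at PN56 and none at PN11. The elastase Elane and the cathepsin G gene Ctsg were not tested here. All 4 were lower in PN56 WT than in PN11 WT corneas.

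Of 7 tested genes of the C1 complex, the lectin pathway and the contact system, 4 were higher at PN56 and 1 at PN11. Of the 4, C1qa, C1qc and C1qb (3.36, 3.13 and 3.02 at PN56) encode the recognition chains of C1, which are not proteases and are made by macrophages. C1ra, a C1 protease that Serping1 inhibits, was higher by 1.50, and the other proteases tested, C1s1 and Masp1, differed by 0.68 and 0.95 without being called. At PN11 the call was C1qb (2.05). Like Serping1, 6 of the 7 were lower in PN56 WT than in PN11 WT corneas. Among 11 coagulation genes 6 were higher at PN56 and 0 lower, with F13a1, F10 and Pros1 (2.55, 1.97 and 1.44) in front, and 3 were higher and 2 lower at PN11. At PN11 the higher genes were F5, F10 and Pros1 (2.82, 2.34 and 1.33), and the lower ones were F3, tissue factor (-1.15), and Procr, the protein C receptor (-1.04). Of 9 genes listed under plasminogen activation, Plaur was higher (1.37) at PN56. Thbd, the thrombin receptor thrombomodulin, was lower (-1.02) at PN56 and was counted in this list, not among the 11 coagulation genes. The PN56 difference of Vtn was 1.42 (adjusted p = 0.0784). At PN11 0 of the 9 were called, and the difference furthest from 0 was that of Plat (0.97).

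Cysteine cathepsins were higher in 4 of 11 genes at PN56 and 1 at PN11, with Ctss, Ctsk and Ctsz in front at PN56 (1.74, 1.55 and 1.30) and Ctss alone at PN11 (1.94). Of 14 collagen hydroxylation and chaperone genes, which act beside Serpinh1, P4ha2 and Plod2 were higher at PN56 (1.32 and 1.27) and Plod1 was lower at PN11 (-1.13), while 9 were lower in PN56 WT than in PN11 WT corneas. Of 15 tested epithelial kallikreins and membrane serine proteases, 0 were higher and 3 lower in PN56 Klf5CN corneas (Klk11, Prss32 and Klk10, by -2.60, -1.63 and -1.43). At PN11 the calls were Prss22 and St14 higher (1.32 and 1.31) and Prss32 lower (-1.35). In WT corneas 8 of the 15 were higher at PN56 than at PN11.

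Inhibitors of other families also moved. Of 14 Kunitz, Kazal and WAP inhibitors, 4 were higher at PN56 and 6 at PN11, with 0 lower. Slpi, the secretory leukocyte protease inhibitor, was higher at PN56 (2.88, adjusted p = 0.00176) and at PN11 (2.49, adjusted p = 0.0205). The largest differences at PN11 were those of Wfdc18, Spink12 and Spink5, the skin inhibitor of kallikreins (6.39, 4.54 and 3.44). At PN56 the leading genes were Slpi, Wfdc21 (2.26) and Pi16 (2.04). Of 9 cystatins and stefins, Stfa2l1, an inhibitor of cysteine proteases expressed in neutrophils, was higher at both ages (2.77 and 3.34), Cst7 was higher (1.35) and Cst6 lower (-1.38) at PN56.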

How the data were processed

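Corneal RNA of 14 mice was measured on Affymetrix mouse genome arrays. Per the deposited files and the Methods, the authors computed an intensity for each probe set with GCOS 1.4 defaults and scaled each array to a 2% trimmed mean of 150. The deposited tables also hold, for each group, the authors' count of arrays on which a probe set was called Present. A further 3 columns hold the authors' own pairwise comparisons of arrays and were not used. The 2 deposited tables were equal in all 631414 signals.

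Here signals under 10 were set to 10 (29.5% of values were below it) and log2 was taken. The 64 control probe sets were left out. Probe sets over 20 on at least 3 arrays (29355) entered one fit over all 4 groups (R 4.3.3; lmFit, then eBayes with an intensity trend, of limma 3.58.1; two-sided), with Benjamini-Hochberg adjustment over all of them. Intervals are 95% intervals of the fitted difference, before adjustment. A fold against a group wholly at the floor is given as a lower bound. The fit was tested on simulated data. Probe sets were named from the platform annotation of the arrays, and 39 of the 39 member symbols matched RefSeq genes of GRCm38.p6. Proteins were not analysed here. Tables and plots were made in Python 3.11.15.

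Members were named with values if called in a genotype comparison or in the difference between ages, or if among the 6 largest called age changes in WT corneas per direction, together with members whose probe sets disagreed, the 5 brightest members, and the largest calls of each protease and inhibitor list. Members, lists and rules were chosen with earlier results of these data known. The mice are littermates and the labels give 1 sample for each mouse. Alternatives changed the normalization, the floor, a pseudocount, the filter, the minimum fold, the groups fitted, the variance estimate, a replicate block, a covariate for the 3′ to 5′ Actb ratio, the methods' rule of a rank test and Present calls, counting by gene, and each array left out in turn. Leaving out both arrays of high 3′ to 5′ ratio was added after seeing the data.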

Additional observations from a re-analysis of the deposited data

Results flagged for a closer look

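Serpinb3a differed in its genotype effect between ages: the log2 difference between Klf5CN and WT corneas at PN56 minus that at PN11 was 3.59 (SE 0.71, limma adjusted p = 0.0426), with 0.38 at PN56 and -3.20 at PN11. In 17 of 24 alternative settings, the adjusted p no longer passed 0.05, with a range of 0.00215 to 0.2 over the alternatives, and the difference kept its sign in all of them. Among the 36 groups of 4 arrays whose named serpin values varied, 0 held an array that stood apart from the other 3 by Dixon's test at its 95% level.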

How the results depend on the processing

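Of 691 recomputed values of the 28 serpin differences named above, 594 kept their direction and their side of the threshold, 97 were no longer called and 0 reversed. For 15 of the 28, among them Serpina3n, Serpinb6b and Serpinb9 at both ages, Serpinb1a at PN11 and the WT age differences of Serpinb11, Serpinb8, Serping1, Serpini1, Serpinh1 and Serpinf1, no alternative ended the call. At PN56 the number of serpin probe sets called between genotypes was 11 and came to 7 with quantile normalization, without a filter, with a filter of 64 and with the methods' rule of a rank test and Present calls, to 6 with the compared groups fitted alone or without both arrays of high 3′ to 5′ ratio, to 5 with a floor of 32 and to 4 with array medians subtracted. Fitted alone, the PN56 groups also lost Serping1 (adjusted p = 0.0513). At PN11 the count was 7, and came to 4 with a floor of 32, which also ended the call of Serpinb3a (log2 -2.10, adjusted p = 0.056), and to 13 with no minimum fold. The count for the difference between ages was 1, and came to 0 with a floor of 32, with 16 added to the signals, without a filter, with a robust variance estimate and without both arrays. The causes were not tested. With single arrays left out, the PN56 count ran from 6 to 11, the PN11 count from 7 to 8, the WT age count from 11 to 13 (12 in the fit reported), the Klf5CN age count from 13 to 16 (15) and the count for the difference between ages from 0 to 3. The 3, without PN56 Klf5CN replicate 3, were Serpinb3a, Serpinf1 (1.85 by 1416168_at) and Serpinh1 (1.14 by 1450843_a_at). Same-numbered Klf5CN and WT arrays did not deviate together (r of -0.20 to 0.09). Weak correlations cannot show whether equal numbers mark a shared litter, and the labels do not say so. With the replicate number as a block the counts were 10 at PN56, 7 at PN11, 13 and 15 for age in WT and Klf5CN corneas and 1 for the difference between ages. Serpins near the floor have little room for a measured decrease.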
